A study of Mus musculus with 6 samples.

Results

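Arterial endothelial cells line the vessels that carry blood into the pancreas. In the 6 single-cell libraries they were chosen by a rule on UMIs, the counted RNA molecules of a cell barcode. A barcode had to have at least 200 genes, at most 20% mitochondrial UMIs, UMIs of at least 3 of the 7 endothelial genes Plvap, Kdr, Flt1, Emcn, Egfl7, Cdh5 and Pecam1, and 0 UMIs of the leukocyte gene Ptprc and the B cell gene Cd79a. It also had to hold at least 3 UMIs in all of the 5 arterial genes Gja4, Gja5, Sema3g, Fbln5 and Hey1. The rule found 293 cells among 8582 barcodes, of which 4929 passed the limits on genes and mitochondrial UMIs and 1709 were endothelial. They were set against the 1064 endothelial cells with 0 UMIs of the 5 arterial genes, called other endothelial cells here, while 352 endothelial cells with 1 or 2 such UMIs belonged to neither class.

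The cells came from mice of the strain R26[CA]30EYFP on a C57Bl/6J background, a Rosa26 reporter in which slippage at a CA repeat during DNA replication can bring EYFP into frame, so that a dividing cell can come to express EYFP and pass it to its progeny. Pancreatic cells were sorted into an EYFP positive and an EYFP negative library in each of 3 runs, and all groups carry the reporter. Runs 1 and 2 were in homeostasis without treatment. Run 3 was taken 9 days after cerulein pancreatitis, for which 50 ug/kg cerulein, a secretagogue that injures the exocrine pancreas, was injected into the peritoneum 7 times a day at hourly intervals on 2 days in a row. Each EYFP and state group thus has 2 libraries in homeostasis and 1 in pancreatitis, and age, sex and the number of mice per run are not given in the sources used here. The features held 0 rows for EYFP, and the counts therefore offer no check of the sort.

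As background, arterial identity is built by VEGF and Notch signalling. The ligand Dll4 activates Notch receptors on neighbouring cells, SOXF transcription factors act with them, and the Notch target Hey1 represses the venous programme. Gja4 and Gja5 encode the gap junction proteins connexin 37 and connexin 40 that couple arterial cells, Fbln5 encodes a protein of elastic fibres, and Sema3g is a secreted semaphorin. Capillary cells, the main endothelial type of an exocrine gland, carry fenestrations with the diaphragm protein Plvap and take up lipid through Gpihbp1, Cd36 and fatty acid binding proteins.

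RefSeq promoter windows (GRCm38.p6), 250 bases before to 50 after a gene's start, were searched on both strands for TGGGAA (a core of the RBPJ motif of Notch signalling), AACAAT (SOX) and CCACCC (KLF). Of 41 genes looked for, the 5 arterial genes, label markers, Sox17, Efnb2, Dll4 and the genes named in the arterial comparison, 34 had a window. The windows of 4 genes that the rule or the label uses are shown because each holds at least 1 match, with matches in capitals, 5′ to 3′ in the direction of transcription. Gja5 lies at chr3:97032152-97032451 (+ strand) and holds 3 KLF matches, Sema3g at chr14:31217623-31217922 (+ strand) with 1 RBPJ and 1 KLF match, Rbp7 at chr4:149454919-149455218 (- strand) with 1 RBPJ and 1 KLF match, and the first of 2 windows of Fbln5 at chr12:101819070-101819369 (- strand) with 1 RBPJ and 1 SOX match.
Gja5: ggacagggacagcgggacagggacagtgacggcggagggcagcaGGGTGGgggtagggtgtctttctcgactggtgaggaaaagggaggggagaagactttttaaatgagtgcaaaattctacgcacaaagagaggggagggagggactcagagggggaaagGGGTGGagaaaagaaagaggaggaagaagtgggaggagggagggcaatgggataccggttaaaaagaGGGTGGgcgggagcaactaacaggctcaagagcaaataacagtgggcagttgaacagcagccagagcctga
Sema3g: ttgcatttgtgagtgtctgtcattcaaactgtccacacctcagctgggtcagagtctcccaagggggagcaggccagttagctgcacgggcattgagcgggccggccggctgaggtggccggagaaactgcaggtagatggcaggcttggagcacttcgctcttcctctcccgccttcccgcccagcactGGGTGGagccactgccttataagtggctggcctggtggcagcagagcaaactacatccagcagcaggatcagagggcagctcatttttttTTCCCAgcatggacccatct
Rbp7: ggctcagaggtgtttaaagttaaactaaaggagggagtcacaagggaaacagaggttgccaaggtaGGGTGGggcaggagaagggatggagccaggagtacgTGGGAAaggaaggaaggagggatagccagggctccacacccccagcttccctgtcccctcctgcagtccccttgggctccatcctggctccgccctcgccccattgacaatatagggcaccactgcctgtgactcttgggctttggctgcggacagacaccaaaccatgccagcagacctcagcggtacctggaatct
Fbln5: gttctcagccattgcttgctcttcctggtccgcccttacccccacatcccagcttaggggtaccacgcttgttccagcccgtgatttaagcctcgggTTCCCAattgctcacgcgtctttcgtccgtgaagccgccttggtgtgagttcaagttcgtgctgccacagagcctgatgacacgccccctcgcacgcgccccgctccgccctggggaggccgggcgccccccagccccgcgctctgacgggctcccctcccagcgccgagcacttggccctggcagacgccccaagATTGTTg
Such letters are common. Among all 32851 windows of the table, 25.6% held the RBPJ letters, 10.7% the SOX letters and 31.5% the KLF letters. The windows of Gja4, Tm4sf1, Efnb2, Dll4, Edn1, Tgfb2 and Cxcr4 held 0 matches to any of the 3. Windows of the genes found higher in arterial cells below held the RBPJ, SOX and KLF letters in 18.8%, 6.77% and 41.0%. Windows of all genes tested there held them in 21.4%, 5.59% and 36.9%, and those of the lower genes in 28.5%, 4.42% and 40.6%. A match is a description of the letters and not a site.

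The libraries differed in depth and content. They held 220 to 3593 barcodes and 1044718 to 23658431 UMIs, and the arterial cells numbered 155, 4 and 5 in EYFP positive runs 1, 2 and 3 and 30, 74 and 25 in EYFP negative runs 1, 2 and 3. Gene tests used the 4 libraries with at least 10 arterial cells, so that EYFP positive runs 2 and 3 gave shares but entered no main gene test. Levels are CPM, the usual scaling of a gene's UMIs to the total UMIs of the summed cells. Values below run in the order EYFP positive run 1, then EYFP negative runs 1, 2 and 3, the last of which is the pancreatitis library. The median arterial cell held 4923, 4256, 3347.5 and 3803 UMIs in these 4 libraries, against 5305, 2675, 2066.5 and 1601 in other endothelial cells. EYFP positive and negative libraries of the same run shared 23, 71 and 47 barcodes in runs 1, 2 and 3, whereas libraries of different runs shared 0 to 2. Of the 293 arterial cells, 3 had a barcode that another library also held, and leaving all such barcodes out gave 476 calls in the arterial comparison, against 493 with them. Since nothing says that the runs were separate mice, the p-values reflect how far these libraries spread, which may be technical.

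Sema3g was present in 215 of the 293 cells (73.4%), Gja4 in 212 (72.4%), Hey1 in 185 (63.1%), Fbln5 in 184 (62.8%) and Gja5 in 35 (11.9%). Gja5, which encodes connexin 40, was thus the rarest of the 5 in these cells, and removing it would have cost the set 1 cell, against 51 to 68 cells for each of the others. The cells held 1 to 5 of the 5 genes, with 29, 90, 94, 60 and 20 cells at each step. The 29 cells that passed by a single gene did so by Hey1 in 10, Sema3g in 7, Gja4 in 6, Fbln5 in 6 and Gja5 in 0. The median sum was 5 UMIs and the highest 50. At the threshold itself, the 68 cells with a sum of 3 and the 110 cells just outside it with a sum of 2 held a median of 3816 and 3898.5 UMIs and 1888 and 1888.5 genes. Sox18, an arterial and lymphatic SOXF factor, had a UMI in 95.6% of the cells just inside and 83.6% of those just outside, Tm4sf1 in 97.1% and 93.6%, and Rbp7 in 83.8% and 87.3%. Some other genes hardly differed between the cells just inside and just outside. Sox17 had a UMI in 51.5% and 48.2% of them, Stmn2 in 19.1% and 18.2% and Edn1 in 19.1% and 20%. Mecom differed more, at 51.5% and 36.4%, as did Glul, at 67.6% and 54.5%, and Tgfb2, at 39.7% and 33.6%. The pair found together most often was Gja4 and Sema3g, in 160 cells, and 140 held Gja4 and Fbln5. In the summed arterial cells Gja4 was at 515, 404, 391 and 380.3 CPM, Gja5 at 56, 111, 27.1 and 47.5, Sema3g at 443, 364, 383 and 371, Fbln5 at 609, 547, 805 and 732 and Hey1 at 361, 254, 348 and 361 in EYFP positive run 1 and EYFP negative runs 1, 2 and 3. These genes chose the cells, so their values are a description, and other endothelial cells hold 0 of each by construction.

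Of the 5 label markers, Fbln5 and Gja4 were used by the rule, so only Sox18, Tm4sf1 and Rbp7 lie outside it. These were also chosen with earlier results of these data known, so they are no independent check of the name. All 3 were higher in arterial cells, where "called" in all comparisons means an edgeR quasi-likelihood adjusted p under 0.05 over all genes tested. Tm4sf1, a membrane protein of endothelial filopodia, was at 2989, 2939, 4259.7 and 2947 CPM in arterial cells, against 1125, 907, 1489.6 and 1064 in other endothelial cells. The 2 classes did not overlap for Tm4sf1, with a log2 fold change of 1.50 ± 0.14 (SE) and an adjusted p of 3.5e-09. Sox18 was at 2317, 2385, 1397 and 960.3 CPM in arterial cells, against 1232, 1462, 742 and 534 in other endothelial cells, and each library was higher in its arterial cells although the classes overlapped. Its difference had a log2 fold change of 0.82 ± 0.13 (SE) and an adjusted p of 3.8e-05, and the call was lost without the library block, at 0.81 (adjusted p of 0.12). Rbp7, a retinoid binding protein of fat and endothelium that the list of capillary genes also holds, was at 1925, 1862, 2271 and 951 CPM in arterial cells, against 982, 1079, 1226 and 912 in other endothelial cells, so the pancreatitis library hardly differed. Rbp7 had a log2 fold change of 0.68 ± 0.15 (SE) and an adjusted p of 0.0014, and fell short of the threshold without EYFP positive run 1, at 0.58 (adjusted p of 0.077), without EYFP negative run 2, at 0.63 (adjusted p of 0.052), and without the library block, at 0.69 (adjusted p of 0.11).

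None of Tm4sf1, Sox18 and Rbp7 was restricted to the arterial cells. With each cell thinned to 1500 UMIs, which left out 22 of 284 arterial and 315 of 1017 other endothelial cells of the 4 libraries as too shallow, Sox18 had a UMI in 88.9% of arterial, 67.9% of other endothelial and 0.137% of cells with 0 of the endothelial genes. Rbp7 had one in 75.6%, 59.8% and 0.343% of the same 3 classes. Tm4sf1 had one in 94.7%, 78.3% and 2.95% of them. Sox17 separated the classes more, with 45.4% of arterial against 10.4% of other endothelial cells, and Stmn2 with 29% against 1.85%. Unthinned, Sox18 was in 93.7% of arterial, 70.7% of other endothelial and 0.853% of non-endothelial cells, Rbp7 in 89.8%, 65% and 1.48%, Tm4sf1 in 97.5%, 78.7% and 6.09%, Sox17 in 70.1% and 17.7% and Stmn2 in 42.3% and 2.65% of the 2 endothelial classes. The median depth was 4267.5 UMIs for arterial, 2806 for other endothelial and 5243 for non-endothelial cells.

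**Figure D1:**
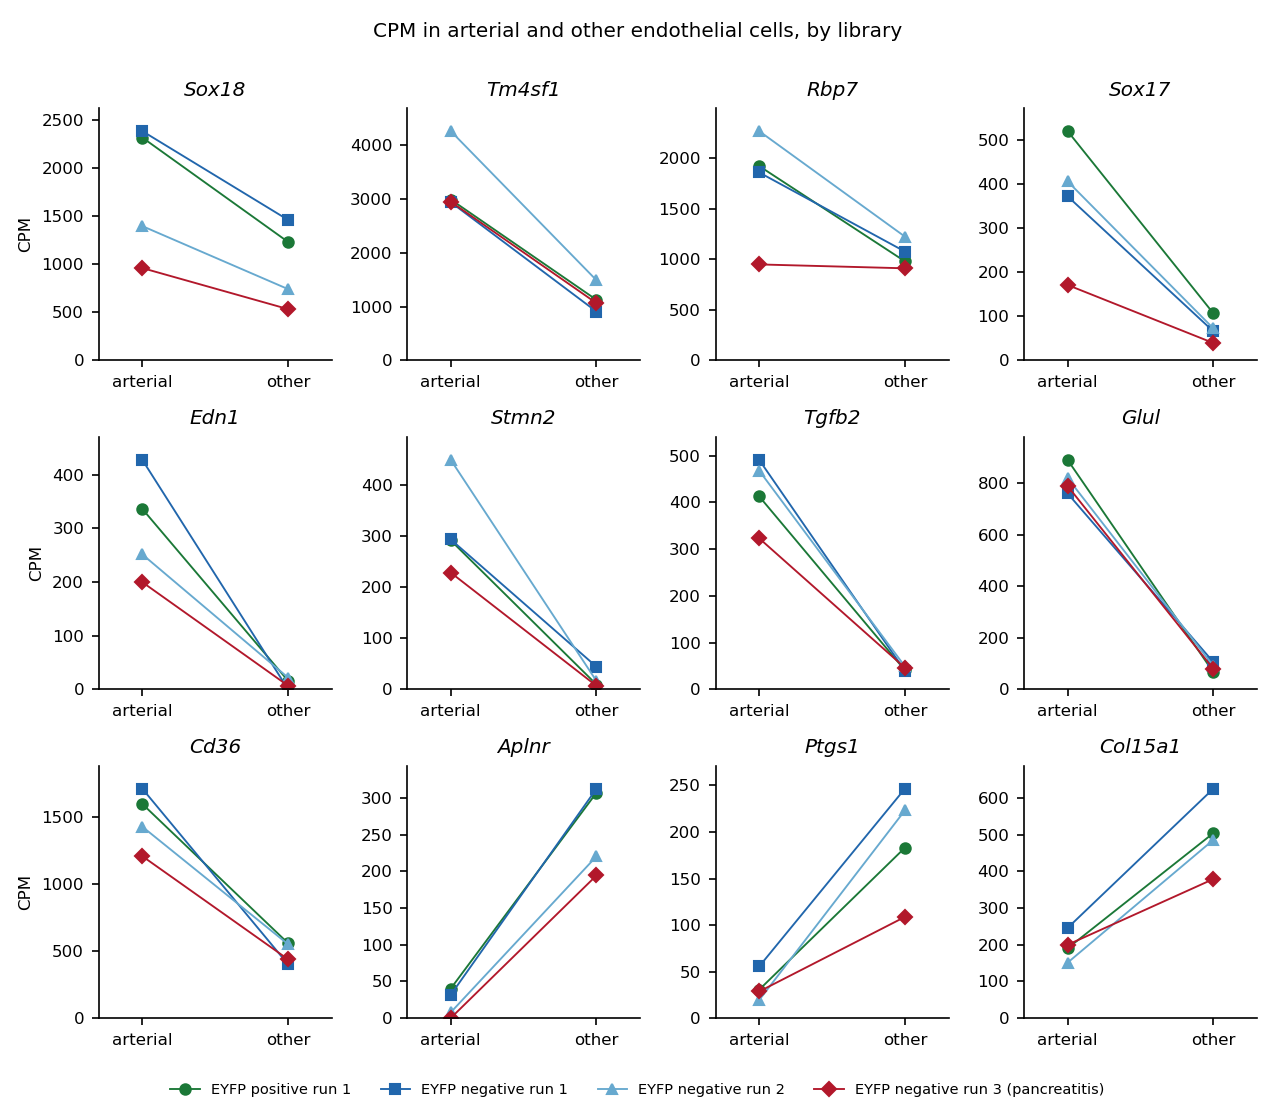
CPM (vertical axes, linear from 0) of 12 genes in the summed arterial cells (left) and other endothelial cells (right) of each of the 4 libraries, with a line joining the 2 classes of a library. Edn1, Stmn2, Tgfb2 and Glul lie at 106 or below in other endothelial cells and at 199.7 or more in arterial cells, Rbp7 of the pancreatitis library is nearly level, and Aplnr, Ptgs1 and Col15a1 run the other way.

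Across the genome, 4747 genes outside the rule were tested in arterial against other endothelial cells, and 249 were higher (5.25%) and 244 lower (5.14%), or 10.4% in either direction, with a median log2 fold change of -0.01 over all genes tested. The count called was 298 without EYFP positive run 1, 222 without the library block and 248 by DESeq2, against 493. Because the cells were split by UMIs of 5 genes of their own, these are genes that go with those 5 in the same cells. The gene lists below share some genes, so their counts overlap. On a list of 32 other arterial genes, 23 of 29 tested genes were higher and 2 lower, with a median log2 fold change of 1.08. The list was 24 higher and 2 lower without the pancreatitis library, and 20 and 0 of 27 without EYFP positive run 1. The 2 lower genes were Nrp1, a VEGF co-receptor, and Clu, a secreted chaperone. Clu, at 166, 103, 151 and 143 CPM in arterial cells and 663, 35.2, 123 and 95.5 in other endothelial cells, was lower in arterial cells of EYFP positive run 1 and higher in those of the other 3 libraries, and its log2 fold change of -0.95 turned to 0.51 (adjusted p of 0.33) without EYFP positive run 1. Nrp1 had a log2 fold change of -0.43 (adjusted p of 0.044), and its call was lost without EYFP positive run 1, EYFP negative run 1 or EYFP negative run 2, at adjusted p-values of 0.29, 0.2 and 0.42. Hes1 (0.00), Acvrl1 (0.14), Jag1 (0.35) and Notch4 (0.36) were not called.

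Several transcription factors of arterial cells were higher. Sox17, a SOXF factor required for arterial fate, was at 520.2, 372, 406 and 171 CPM in arterial cells and 107, 66, 72.8 and 39.5 in other endothelial cells, with a log2 fold change of 2.32 ± 0.14 (SE) and an adjusted p of 9.2e-14. The classes did not overlap, and the pancreatitis library was the lowest in both. Mecom, a zinc finger factor of arterial endothelium, was at 457, 372, 445 and 428 CPM in arterial cells, against 49.9, 88, 44.8 and 9.88 in other endothelial cells, also without overlap, with a log2 fold change of 3.19 ± 0.19 (SE) and an adjusted p of 9.2e-14. Klf2, the factor that responds to laminar flow, was at 1497, 1584, 1447 and 1464 CPM in arterial cells and 631, 748, 643 and 626 in other endothelial cells. It was about as high in the pancreatitis library as in the others, with a log2 fold change of 1.16 ± 0.13 (SE) and an adjusted p of 8.9e-08. Its relative Klf4 was not called (0.41, adjusted p = 0.062). Of 14 tested SOX, ETS and other endothelial factors, 4 were higher, namely Mecom, Sox17, Klf2 and Sox18, and 3 were lower. The lower ones were Ets2, at -0.91, and Fli1, at -0.74, both ETS factors, and Mef2a, at -0.61.

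Notch genes moved in part. The ligands Dll4 and Jag2 and the receptor Notch1 were the 3 higher genes of 17 tested on the Notch list, and the glycosyltransferase Mfng, which tunes ligand choice, was the only lower one at -1.14. The median of the list was 0.00. Dll4 was at 236, 229.7, 209 and 162 CPM in arterial cells and 110.2, 163, 103 and 88.9 in other endothelial cells, with a log2 fold change of 0.92 ± 0.15 (SE) and an adjusted p of 2.6e-05. The ranges of Dll4 touched, since the pancreatitis library's arterial value lay below the other endothelial value of EYFP negative run 1. Jag2 was at 218, 222, 209 and 228 CPM in arterial cells, against 105, 136, 83.3 and 88.9 in other endothelial cells, and Notch1 at 545, 642, 429 and 447 against 317, 387, 220.4 and 171. Neither overlapped, and their log2 fold changes were 1.08 and 0.89. Efnb2, the ephrin ligand that marks arteries against EphB4 on veins, was at 735, 745, 526 and 399 CPM in arterial cells and 220.5, 304, 202 and 270.1 in other endothelial cells, with a log2 fold change of 1.30 ± 0.15 (SE) and an adjusted p of 1.5e-07, while Ephb4 itself was not called at -0.10. The second Notch target gene of arteries, Hey2, had 0 UMIs in the arterial cells of the 4 libraries, among 1310637 UMIs, which allows up to 2.29 CPM.

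The 15 genes with the largest increases, at a mean log2 level of at least 5 and in the same direction in every library, ran from Col8a1 to Ace. Col8a1, a collagen of the vessel wall's inner lining, was at 75.5, 71.3, 135 and 66.6 CPM in arterial cells and 0, 0, 1.4 and 0 in other endothelial cells. It had 113 UMIs in arterial and 2 in other endothelial cells, a ratio of 150.2 with an exact 95% counting interval of 40.6 to 1255. Stmn2, a microtubule regulator better known from neurons, was at 291, 293, 449 and 228 CPM in arterial cells, against 9.19, 44, 16.1 and 6.59 in other endothelial cells, with a log2 fold change of 4.52 ± 0.22 (SE) and an adjusted p of 9.7e-16. Edn1, the vasoconstrictor endothelin 1, was at 336, 428, 251 and 199.7 CPM in arterial cells and 15.7, 0, 21.7 and 6.59 in other endothelial cells, with a log2 fold change of 4.18 ± 0.23 (SE) and an adjusted p of 2.0e-14. Ace, the peptidase that makes the constrictor angiotensin II, was at 279, 325, 205 and 181 CPM in arterial cells, against 36.7, 35.2, 42 and 26.4 in other endothelial cells, with a log2 fold change of 2.68 ± 0.17 (SE) and an adjusted p of 6.4e-13.

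Tgfb2, a TGF-beta ligand, was at 413, 491, 468 and 323 CPM in arterial cells and 40.7, 39.6, 49 and 46.1 in other endothelial cells, with a log2 fold change of 3.24 ± 0.15 (SE) and an adjusted p of 6.4e-16. The lowest arterial value, of the pancreatitis library, lay well above every other endothelial value. Cxcr4, the receptor of the chemokine Cxcl12, was at 106, 79.2, 108 and 76.1 CPM in arterial cells, against 8.53, 0, 17.5 and 0 in other endothelial cells, with a log2 fold change of 3.27 ± 0.31 (SE) and an adjusted p of 3.1e-09. Its ligand Cxcl12 was higher in arterial cells too, at 0.88, and the scavenger receptor Ackr3 was lower, at -0.78. Ptprr, a tyrosine phosphatase of MAP kinases, had a log2 fold change of 3.09 and St8sia6, a sialyltransferase, of 5.11, with 123, 119, 104 and 105 CPM in arterial and 0.656, 0, 7 and 0 in other endothelial cells.

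Glul, glutamine synthetase, was at 891, 761, 820.2 and 789 CPM in arterial cells and 66.3, 106, 91 and 79.1 in other endothelial cells, with arterial values between 761 and 891. It had a log2 fold change of 3.30 ± 0.16 (SE) and an adjusted p of 8.7e-16. Alpl, the tissue-nonspecific alkaline phosphatase, rose by 3.27, Aqp7, a water and glycerol channel, by 2.92, Alox12, an arachidonate lipoxygenase, by 2.84, and Nudt4, a hydrolase of inositol pyrophosphates, by 2.77 on the log2 scale. Eps8l2, an actin regulator, rose by 3.16.

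Of 17 tested TGF-beta and BMP genes, 9 were higher and 2 lower, with a median of 0.49. Beside Tgfb2, the receptor Tgfbr2 (0.55), the ligand Bmp6 (0.88), the latent TGF-beta binding protein Ltbp4 (0.54), the inhibitors Smad6 (0.65) and Smad7 (0.70) and the BMP targets Id1 (0.90), Id2 (0.74) and Id3 (0.49) were higher, as log2 fold changes. The co-receptor Tgfbr3 (-1.04) and the signal carrier Smad5 (-0.76) were lower. Id1, for example, was at 1910.4, 1497, 1354 and 1027 CPM in arterial cells and 934, 1035, 621 and 524 in other endothelial cells. It was higher in the arterial cells of each library, although the pancreatitis library's arterial value lay just below the highest other endothelial value. Without EYFP positive run 1 the list was 4 higher and 1 lower of 16, and without EYFP negative run 2 5 higher and 1 lower of 16.

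Of the 4 tested elastic fibre genes outside the rule, Eln and Ltbp4 were higher, Mfap2 was lower (-1.43) and Fbln2 was not called (0.14). Eln, which encodes elastin, was at 135, 111, 85.1 and 85.6 CPM in arterial cells, against 26.9, 35.2, 32.9 and 19.8 in other endothelial cells, with a log2 fold change of 1.90 ± 0.23 (SE) and an adjusted p of 3.0e-07. Vegfc, a ligand best known for lymphatic growth, was at 144, 182, 104 and 114 CPM in arterial cells and 33.5, 26.4, 25.2 and 32.9 in other endothelial cells, with a log2 fold change of 2.09 ± 0.20 (SE) and an adjusted p of 4.5e-09. Neither Eln nor Vegfc overlapped between classes. Plat, the tissue plasminogen activator that starts clot lysis, was higher by 1.92 and Unc5b, a netrin receptor of arteries, by 1.65 on the log2 scale. Bmx, an arterial tyrosine kinase, was higher by 3.75 at a low level of 50, 39.6, 38.7 and 38 CPM in arterial cells.

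**Figure D2:**
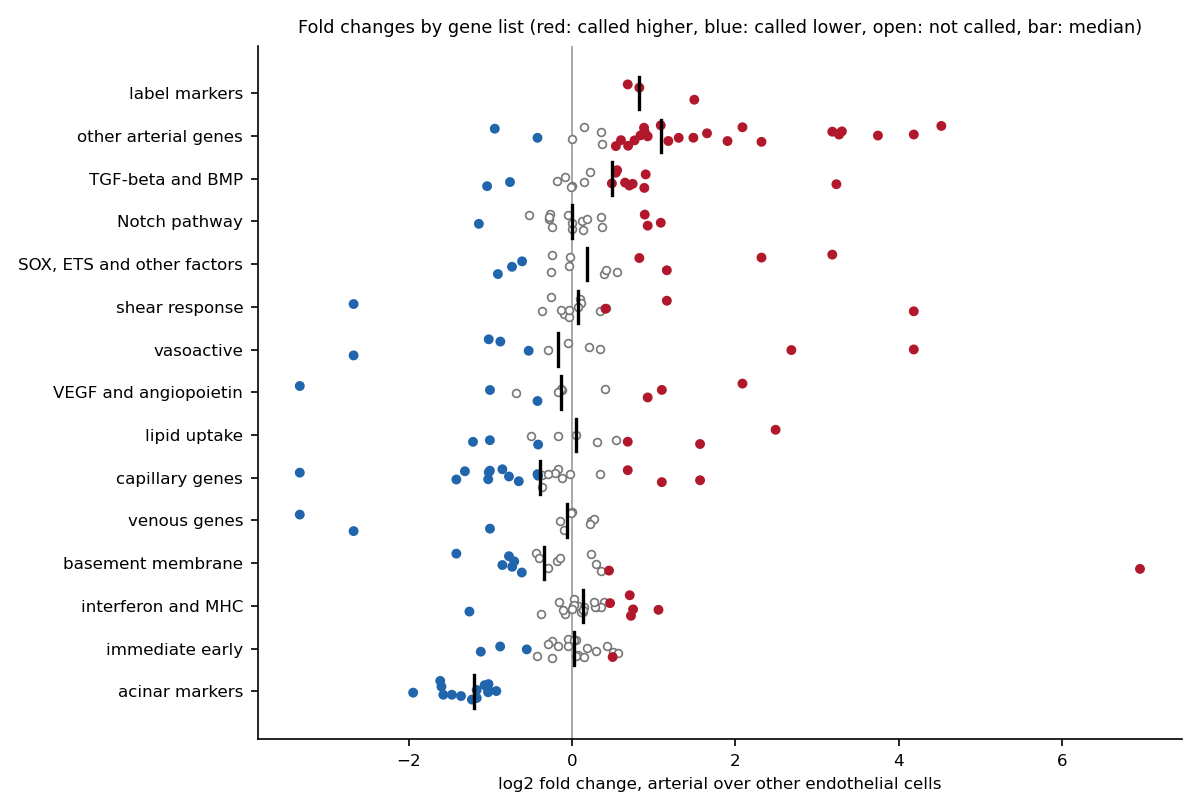
Log2 fold change of arterial over other endothelial cells (horizontal axis) for each tested gene of 15 lists, with genes called higher in red, called lower in blue and not called open, and each list's median as a bar. Genes of other arterial cells sit mostly right of 0 with a median of 1.08, capillary genes mostly left with a median of -0.39, and the 14 acinar markers all lie left of 0.

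Of 22 tested capillary genes, 11 were lower and 3 higher, with a median log2 fold change of -0.39, and of 10 venous genes 3 were lower, 0 higher and 7 not called, with a median of -0.06. The lower venous genes were Aplnr, which the capillary list also holds, Ptgs1 and Nrp2. Aplnr, the apelin receptor, was at 40.2, 31.7, 7.74 and 0 CPM in arterial cells and 307, 313, 220.4 and 194 in other endothelial cells, with a log2 fold change of -3.34 ± 0.23 (SE) and an adjusted p of 2.0e-12. It had no UMI in the arterial cells of the pancreatitis library, where 0 of 105177 UMIs allow up to 28.5 CPM. Ptgs1, cyclooxygenase 1, was at 30.5, 55.5, 19.3 and 28.5 CPM in arterial cells, against 183, 247, 223 and 109 in other endothelial cells, with a log2 fold change of -2.68 ± 0.21 (SE) and an adjusted p of 7.5e-11. Nrp2, a co-receptor of veins and lymphatics, was lower by a log2 fold change of -1.01. Plpp1, a lipid phosphatase, was at 738, 729, 774 and 352 CPM in arterial cells and 1521, 1585, 1953 and 1232 in other endothelial cells, with a log2 fold change of -1.31 ± 0.14 (SE) and an adjusted p of 6.3e-08. The carbonic anhydrase Car4 (-1.03), the adrenomedullin receptor partner Ramp3 (-1.02), Fabp5 (-1.01) and Igfbp7 (-0.65) were also lower.

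The 3 capillary genes that were higher in arterial cells were Rbp7, Esm1 and Cd36. Cd36, a fatty acid transporter, was at 1597, 1711, 1428 and 1207 CPM in arterial cells and 558, 401, 551 and 438 in other endothelial cells, without overlap and with a log2 fold change of 1.57 ± 0.14 (SE) and an adjusted p of 1.1e-09. Esm1, a proteoglycan made by VEGF-stimulated cells, was at 669, 792, 546 and 352 CPM in arterial cells, against 304, 229, 307 and 198 in other endothelial cells, with a log2 fold change of 1.10 ± 0.15 (SE) and an adjusted p of 2.5e-06. Lipid uptake was thus divided, with 3 of 11 tested genes higher and 3 lower. Slc27a3, a fatty acid transporter and acyl-CoA synthetase, joined Cd36 and Rbp7 at 2.49, whereas the HDL receptor Scarb1, at -1.22, Fabp5 and Gpihbp1, at -0.42, were lower. Fabp4, at 8045, 6694, 11452 and 6028 CPM in arterial cells and 8314, 6198, 11489.7 and 9496 in other endothelial cells, was not called.

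Of the basement membrane genes the collagen IV chains were lower, with 6 of 16 tested lower and 2 higher. Col15a1, a collagen of capillary basement membranes, was at 190.1, 246, 151 and 199.7 CPM in arterial cells, against 504, 625, 486 and 379 in other endothelial cells, with a log2 fold change of -1.42 ± 0.15 (SE) and an adjusted p of 2.8e-08. The collagen IV chains Col4a1 and Col4a2 had log2 fold changes of -0.86 and -0.77, and the classes overlapped for neither. Col4a1 was at 1774, 1497, 1087 and 1350.1 CPM in arterial cells and 2739, 2875, 1985 and 2546 in other endothelial cells. The laminin chain Lamb1 (-0.71), the linker Nid1 (-0.74) and the proteoglycan Hspg2 (-0.62) were lower, while Lamb2 (0.45) and Col8a1 were higher.

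By the same rule of size, the 15 largest decreases were led by Aplnr and held Odc1, Itih5, Ptgs1, Chst2, Trp53i11, Gm13889, Fam174b, Car8, Reg1, Sox4, Slco2b1, Pde2a, Aebp1 and Rnase1. Odc1, the first enzyme of polyamine synthesis, was at 18.3, 7.92, 15.5 and 0 CPM in arterial cells and 159, 145, 119.6 and 69.2 in other endothelial cells, with a log2 fold change of -3.25 ± 0.26 (SE) and an adjusted p of 9.1e-11. Itih5, which encodes a hyaluronan-binding plasma protein, was at 37.8, 23.8, 34.8 and 0 CPM in arterial cells, against 233, 194, 229 and 155 in other endothelial cells, at a log2 fold change of -2.82. Chst2, a sulfotransferase, was at 82.8, 87.1, 50.3 and 19 CPM in arterial cells and 364, 475, 360.3 and 273 in other endothelial cells, at -2.47. The developmental factor Sox4, at -1.68, the phosphodiesterase Pde2a, at -1.63, and the organic anion transporter Slco2b1, at -1.65, followed. The classes overlapped for Gm13889, Fam174b, Reg1, Pde2a and Rnase1. Reg1 and Rnase1 are abundant in acinar cells, and in both the pancreatitis library was far above the rest, with 40.2, 7.92, 42.6 and 162 CPM of Reg1 in arterial and 90.6, 52.8, 65.1 and 1542 in other endothelial cells.

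Acinar RNA was found in most endothelial cells. All 14 tested acinar markers were lower in arterial cells, with a median log2 fold change of -1.20, and at least 2 of the 15 markers had UMIs in 274 of 293 arterial cells (93.5%) and 989 of 1064 other endothelial cells (93.0%). Their sum ranged from 1600.3 to 4916 CPM over the arterial cells of the 4 libraries and from 2316 to 48287 in other endothelial cells. With other endothelial cells limited to the arterial cells' depth, the 5th to 95th percentile of UMIs in each library, 5 of 14 acinar markers were lower and the median was -0.26. Without the pancreatitis library 8 of 14 were lower, with a median of -0.55, and without EYFP negative run 1 9 of 14. With matched depth, 23 of 27 other arterial genes were higher and 1 lower, 12 of 22 capillary genes were lower and 3 higher, and the interferon and MHC list had 3 genes higher and 2 lower. Of the 4 tested red cell genes, 3 were lower and 0 higher, with a median of -3.26, but with matched depth 0 were lower and 1 higher, with a median of -0.40. Clu turned to a log2 fold change of 0.69 (adjusted p of 0.006). The part of depth and free acinar RNA in the acinar difference was not tested further.

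Markers of the cells that surround arteries were low. Of 14 mural markers, 8 had 0 UMIs in all arterial cells, among them Acta2, Tagln, Cnn1, Notch3 and Cspg4 of smooth muscle cells and pericytes. The summed mural markers ranged from 27.1 to 55.5 CPM in arterial cells and from 0 to 36.7 in other endothelial cells, and 3 arterial cells (1.02%) and 3 other endothelial cells (0.282%) held 2 or more. The pericyte marker Rgs5 went the other way, at 25.6, 47.5, 19.3 and 19 CPM in arterial cells and 16.4, 0, 4.9 and 6.59 in other endothelial cells, without overlap and too low to be tested. Fibroblast markers summed to 0 to 28.5 and 0.656 to 115 CPM in these classes, with Col1a1, Lum, Dpt and Mfap5 at 0 in arterial cells. UMIs of 2 or more plasma and B cell markers were found in 33 arterial cells (11.3%) and 150 other endothelial cells (14.1%). Of the 10 lymphatic genes, Lyve1, Pdpn, Mmrn1, Reln, Nts, Thy1 and Ccl21a were at 0 in arterial cells, and the list summed to 66.6 to 109.7 CPM in arterial and 69.2 to 136 in other endothelial cells. Most of the arterial sum was Flt4, with 116 UMIs, followed by Prox1 with 10 and Fgl2 with 3.

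Some interferon genes were higher. Of 24 tested interferon and MHC genes 5 were higher, namely Isg15 (1.06), Irf7 (0.75), Ifit1 (0.72), Ifit2 (0.70) and Bst2 (0.46), and 1 was lower, Cd74 (-1.26), the chaperone of MHC class II. Of 21 immediate early genes, which dissociation of tissue can induce, 1 was higher and 3 lower, with a median of 0.02. The higher one was Klf6 (0.50), and the lower ones were Fosl2 (-1.12), Nr4a1 (-0.88) and Egr1 (-0.56). Isg15 was at 325, 349, 406 and 276 CPM in arterial cells and 164, 96.8, 178 and 191 in other endothelial cells. Without EYFP positive run 1, EYFP negative run 1, EYFP negative run 2 and the pancreatitis library in turn, the interferon and MHC list had 1, 3, 3 and 6 genes higher and 1, 3, 1 and 4 lower. Of 10 vasoactive genes 2 were higher, Edn1 and Ace, and 4 were lower, Ptgs1, Ramp3, the endothelin receptor Ednrb (-0.88) and Calcrl (-0.53).

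Among the endothelial cells, levels followed the number of arterial UMIs in a cell. Cells with 0, 1 to 2, 3 to 4 and 5 or more UMIs of the 5 rule genes numbered 1017, 343, 114 and 170 in the 4 libraries, and values are means of the 4 libraries (± SD, n = 4) in that order. Stmn2 was at 19 ± 17.2, 58.3 ± 45.9, 178 ± 107 and 406 ± 107 CPM, and Sox17 at 71.3 ± 27.8, 139 ± 85.7, 265 ± 46 and 442 ± 205. The means of both thus rose step by step, but not in every library. In the pancreatitis library Sox17 was at 39.5, 21.7, 222 and 145 CPM and Stmn2 at 6.59, 0, 139 and 275. Cells of 1 to 2 UMIs thus lay below those of 0 for both genes. The last step there includes 2 cells at 82.8% and 77.9% haemoglobin UMIs, which lower the CPM of every other gene. The lower Sox17 CPM at that step, with 10 UMIs against 8 at 3 to 4, therefore cannot be read as a fall. Aplnr ran the other way, at 259 ± 60.1, 122 ± 52.4, 39.7 ± 48.1 and 10.4 ± 15.5 CPM. Vegfc stood apart, at 29.5 ± 4.31, 9.63 ± 12, 25.8 ± 20.4 and 213 ± 78.7 CPM, as only the cells of 5 or more were high. Edn1 was at 11 ± 9.61, 67.3 ± 30.2, 103 ± 18 and 457 ± 231 CPM, and Eln at 28.7, 35.2, 59.8 and 136, so that for these genes as well the highest step carried most of the level.

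A second set of genes peaked one step lower. Igfbp3, an IGF binding protein, was at 2003 ± 532, 2879 ± 482, 3930.1 ± 1028 and 2409.8 ± 445 CPM over the same steps, the taurine transporter Slc6a6 at 774 ± 189, 1276 ± 209.6, 1677 ± 451 and 1168 ± 367, and Gja1, connexin 43, at 227 ± 58.7, 295 ± 52.1, 452 ± 58.9 and 311 ± 66.5. Cxcl12 was at 888 ± 232, 1604 ± 550.1, 2097 ± 976 and 1377 ± 339 CPM, with a wide spread between libraries at 3 to 4. Plpp1, at 1573 ± 296, 1542 ± 119.8, 1091 ± 339 and 333 ± 159.9 CPM, and Col15a1, at 498, 401, 284 and 131, were low only at the highest step or fell gradually. Depth differed between the steps, since the lowest and highest library medians were 1601 and 5305 UMIs at 0, 2541 and 4255 at 3 to 4 and 3694 and 5086.5 at 5 or more, and a deeper cell more easily reaches a step. In the pancreatitis library the 2 haemoglobin-rich cells also lower the CPM of all other genes at 5 or more, and so that step's mean. The steps use the rule's own genes, so these values are a description with no test.

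**Figure D3:**
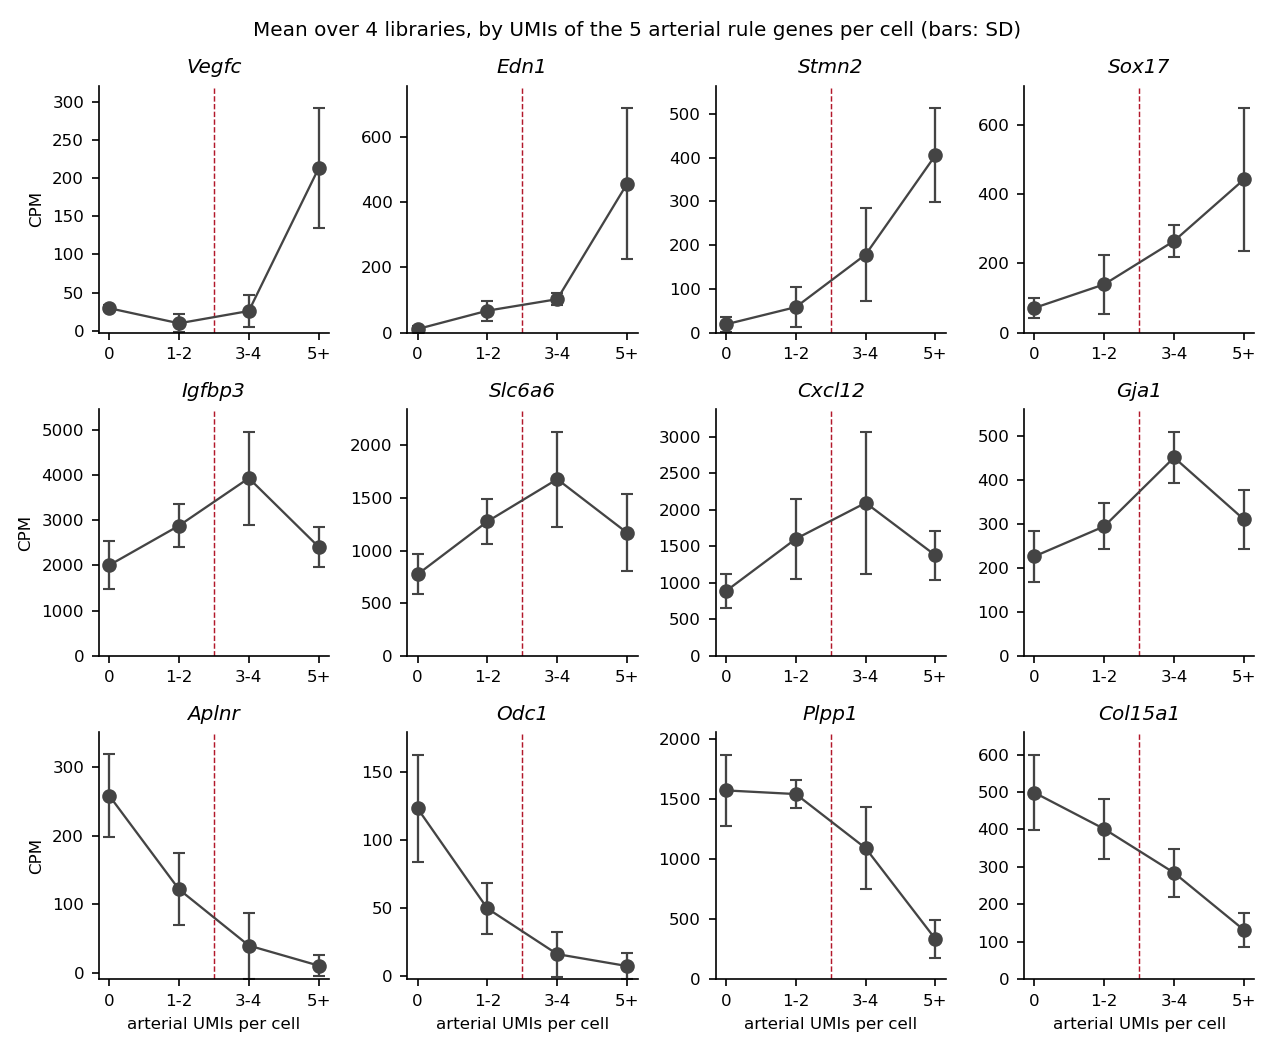
Mean CPM over the 4 libraries (vertical axes, bars ± SD) of 12 genes in endothelial cells with 0, 1 to 2, 3 to 4 and 5 or more UMIs of the 5 arterial rule genes (horizontal axes), where the dashed line marks the threshold of 3. Vegfc, Edn1, Stmn2 and Sox17 are highest at 5 or more, Igfbp3, Slc6a6, Cxcl12 and Gja1 at 3 to 4, and Aplnr, Odc1, Plpp1 and Col15a1 are lowest at 5 or more.

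The members also differed by how many of the 5 genes they held. Stmn2 had a UMI in 5 of 29 cells with 1 gene (17.2%), 22 of 90 with 2, 43 of 94 with 3, 40 of 60 with 4 and 13 of 20 with 5 (65%). Mecom had a UMI in 37.9% of the cells with 1 gene and 90% of the cells with 5. Aplnr had a UMI in 5 of the 29 cells with 1 gene and in 0 of the 60 cells with 4 and 0 of the 20 cells with 5. Cells with 1 and 5 of the genes held a median of 4211 and 5986.5 UMIs, so depth moved with these shares and its part in them was not tested. Fibroblasts express Fbln5 too, and 6 cells passed by it alone. Of these 6, 6 had a Tm4sf1 UMI, 6 a Sox18 UMI, 5 an Edn1 UMI and 4 an Rbp7 UMI. Sox17, Mecom and Glul each had a UMI in 3 of them, Tgfb2 in 2, Stmn2 in 1 and Aplnr in 1.

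The share of arterial cells among endothelial cells was next compared between the EYFP fractions. It was 27.4% in EYFP positive run 1 (155 of 565, exact 95% binomial interval 23.8 to 31.3), 11.4% in run 2 (4 of 35, 3.2 to 26.7) and 16.7% in run 3 (5 of 30, 5.64 to 34.7). In the EYFP negative libraries it was 20.7% in run 1 (30 of 145, 14.4 to 28.2), 9.49% in run 2 (74 of 780, 7.52 to 11.8) and 16.2% in run 3 (25 of 154, 10.8 to 23). The intervals cover counting error only. The mean was 18.5 ± 8.16% in EYFP positive and 15.5 ± 5.64% in EYFP negative libraries (SD, n = 3 each), and the difference of 3.04 percentage points lay within the spread, with a two-sided exact permutation p = 0.6, where 0.1 is the smallest that 3 against 3 can give. Within runs the positive share was higher by 6.74, 1.94 and 0.433 points in runs 1, 2 and 3, and without EYFP positive run 1 the difference of means was -1.42 points. With cells thinned to 1500 UMIs the means were 8.82 ± 4.73% and 8.6 ± 2.59%, a difference of 0.22 points.

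Pancreatitis was compared in the same way. The arterial share was 16.5 ± 0.306% in the 2 pancreatitis libraries and 17.3 ± 8.36% in the 4 homeostasis libraries (SD). The difference of -0.81 points was small against the spread of the homeostasis libraries, with a two-sided exact permutation p = 1, and 0.0667 is the smallest that 2 against 4 can give. Without EYFP positive run 1 it was 2.58 points and without EYFP negative run 1 0.334. Both pancreatitis libraries lay inside the homeostasis range of 9.49 to 27.4%. Thinned to 1500 UMIs the shares were 6.31 ± 2.19% and 9.91 ± 3.47%, a difference of -3.6 points at p = 0.267 by the same exact permutation test. Endothelial cells themselves were 12.6 and 10.5% of the kept barcodes in pancreatitis and 18.7 to 67.7% in homeostasis, so the arterial counts rest on 30 and 154 endothelial cells there. Run 3 is the only pancreatitis run, so run and state cannot be told apart.

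**Figure D4:**
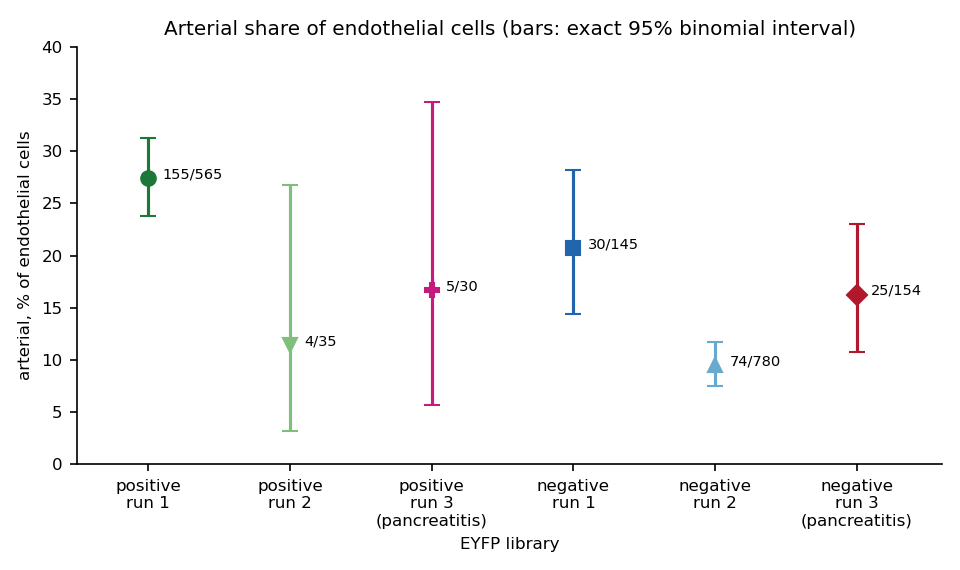
Arterial share of endothelial cells in percent (vertical axis, from 0) in each EYFP positive (left) and EYFP negative library, with the number of cells and the exact 95% binomial interval as bars. EYFP positive run 1 is highest at 27.4% and EYFP negative run 2 lowest at 9.49%.

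Gene levels of arterial cells were then compared between EYFP positive run 1, the only EYFP positive library with at least 10 arterial cells, and the 3 EYFP negative libraries, with state in the model and the lone library assumed to vary like the others. Of 4701 genes, 2 were higher (0.0425%) and 6 lower (0.128%), or 0.17% in either direction, and 61 had an unadjusted p under 0.05. No rule gene, label marker or gene of the other arterial list was called. The 28 tested genes of that list had a median log2 fold change of 0.06, beside -0.02 over all genes tested. Spp1, osteopontin, which duct cells express strongly, was at 344 CPM in EYFP positive run 1 and 23.8, 58 and 0 in EYFP negative runs 1, 2 and 3, with a log2 fold change of 2.83 ± 0.45 (SE) and an adjusted p of 8.7e-07. The other endothelial cells of EYFP positive run 1 held more Spp1 still, at 1501 CPM. Scrublet, a doublet caller, marked 1 arterial cell of EYFP positive run 1. The arterial over other endothelial log2 fold change of Spp1 was -2.32 in the main fit and -4.16 without doublets. With an arterial sum of at least 5 UMIs it was -4.25. Part of the arterial Spp1 level thus went with the cells removed. In the EYFP comparison without that doublet, Spp1 and the other higher gene, Tbx3, did not both stay called. Which of them lost its call is not given here. With an arterial sum of at least 5 UMIs neither was called. Tbx3, a T-box factor, was at 214 CPM in EYFP positive run 1 and 55.5, 54.2 and 76.1 in the EYFP negative libraries, with a log2 fold change of 1.90 ± 0.45 (SE) and an adjusted p of 0.024.

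The 6 genes lower in EYFP positive arterial cells were Igkc, Dbp, Hba-a2, Nr1d1, Hba-a1 and Cpb1. Igkc, the kappa light chain of plasma cells, was at 25.6 CPM in EYFP positive run 1, against 555, 399 and 19 in EYFP negative runs 1, 2 and 3, and their other endothelial cells held 28.9 against 687, 504 and 16.5. The pancreatitis library was thus as low as EYFP positive run 1, and Igkc was low in both classes together. The clock output gene Dbp was at 3.66 CPM in EYFP positive run 1 and 7.92, 166 and 0 in the EYFP negative runs. The 4 arterial cells of EYFP positive run 2, which the test left out, held 3 UMIs of Dbp (152 CPM), too few to place that library. In other endothelial cells Dbp was at 192 CPM (17 UMIs) in EYFP positive run 2 and 160 in EYFP negative run 2. The libraries of runs 1 and 3 held 7.87 CPM or less there, so in that class both libraries of run 2 were high. The clock repressor Nr1d1 was at 20.7 CPM in EYFP positive run 1 and 31.7 and 155 in EYFP negative runs 1 and 2. The arterial cells of EYFP positive run 2 held only 2 UMIs of it (102 CPM). In other endothelial cells Nr1d1 was at 169 and 157 CPM in EYFP positive and negative run 2. The libraries of runs 1 and 3 held 22 CPM or less there. Cpb1, a pancreatic carboxypeptidase, and the haemoglobin genes Hba-a1 and Hba-a2, near-identical copies whose counts may not be separable, are products of acinar and red cells. Hist1h1e, Cd24a and Id4 had the next lowest p-values among higher genes and were not called. With all 6 libraries 1 gene was higher and 14 lower, and by DESeq2 0 were higher and 2 lower.

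Between pancreatitis and homeostasis most of the higher genes were genes of red cells. With EYFP in the model, EYFP positive run 1 had its own term. The state difference thus rests on EYFP negative run 3 against EYFP negative runs 1 and 2. Of 4701 genes, 10 were higher (0.213%) and 4 lower (0.0851%) in the arterial cells of the pancreatitis library, or 0.298% in either direction, and 185 had an unadjusted p under 0.05. Hbb-bs, an adult beta globin, was at 109187 CPM in the pancreatitis library and 18.3, 31.7 and 751 in EYFP positive run 1 and EYFP negative runs 1 and 2, and Alas2, the haem synthesis enzyme of red cells, at 380.3 against 0 in all 3. Hba-a1, Hba-a2, Hbb-bt, Bpgm, Mkrn1, Ube2l6, Reg1 and Ctrb1 were the other higher genes. Of the 25 arterial cells of that library, 2 held over 10% haemoglobin UMIs, at 82.8% and 77.9% of their UMIs, while the median cell had 0.199%. The summed arterial cells of that library were 22.9% haemoglobin, which lowers the CPM of every other gene there. Without cells of 10% or more haemoglobin UMIs, a limit chosen after the data were seen, 0 genes were higher and 4 lower. Hbb-bs was then at 1063 CPM in the pancreatitis library, with a log2 fold change of 1.21 and an adjusted p of 0.9. Ctrb1 and Reg1, a chymotrypsinogen and a lectin of acinar cells, were not called then either, but part of their difference remained, with log2 fold changes of 1.04 and 2.02 without those cells and 2.02 and 2.72 with them. Their adjusted p-values without those cells were 0.99 and 0.99.

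**Figure D5:**
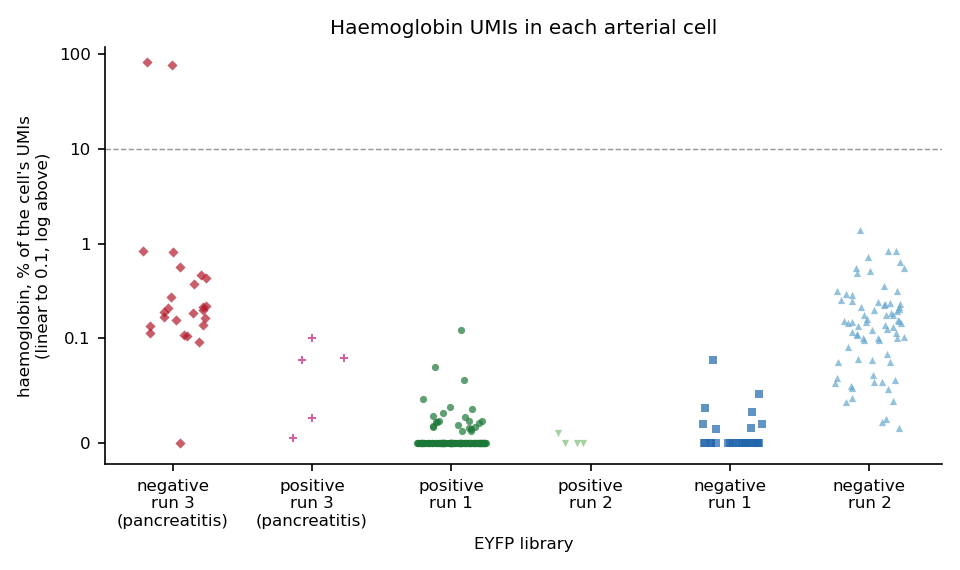
Share of a cell's UMIs from 4 haemoglobin genes in percent (vertical axis, linear to 0.1 and log above) for each arterial cell of the pancreatitis libraries (left) and homeostasis libraries. The pancreatitis EYFP negative library has 2 cells above the dashed line at 10%, and all other arterial cells lie at 1.38% or below.

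The 4 lower genes were Xist, Igkc, Egr1 and Lars2, and they were called with and without the 2 haemoglobin-rich cells. Xist, which silences an X chromosome in female cells, had 0 UMIs in the pancreatitis library, which allows up to 28.5 CPM, against 629, 673 and 329 CPM in EYFP positive run 1 and EYFP negative runs 1 and 2, at least 19.1-fold lower than their mean. The Y-linked gene Ddx3y had 9 UMIs in the pancreatitis library, 0 in both libraries of run 1 and 6 in EYFP negative run 2, so run 3 and run 1 differ in the sex of the mice as the counts show it, and run 2 holds both signals. Sex and state cannot be told apart. Egr1, an immediate early factor, was at 9.51 CPM in the pancreatitis library and 446, 515 and 178 in the homeostasis libraries, with a log2 fold change of -4.72 ± 1.02 (SE) and an adjusted p of 0.002. Lars2, a mitochondrial leucyl-tRNA synthetase, was at 47.5 CPM in pancreatitis and 339, 285 and 623 in homeostasis, with a log2 fold change of -2.97 ± 0.72 (SE) and an adjusted p of 0.016. The 5 arterial cells of EYFP positive run 3, the other pancreatitis library, were left out of the test for their number and held 271 CPM of Lars2 (12 UMIs) and 113 CPM of Egr1 (5 UMIs). For Lars2 that is close to the homeostasis value of EYFP negative run 1, so its low level is that of 1 library.

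No change of arterial genes was called between the states. Of 28 tested genes of the other arterial list, 0 were called in either direction between pancreatitis and homeostasis by edgeR, with a median log2 fold change of -0.10, beside 14 calls and a median of -0.04 over all genes tested. Sox17 was at 171 CPM in the pancreatitis library and 520.2, 372 and 406 in homeostasis, below all 3, yet with a log2 fold change of -0.86 ± 0.57 (SE) and an adjusted p of 1. Hey1 was at 361 CPM in pancreatitis and 361, 254 and 348 in homeostasis, and Tm4sf1 at 2947 against 2989, 2939 and 4259.7. Of the 8 tested inflammatory activation genes 0 were called. The pancreatitis side rests on 25 cells with 105177 UMIs, which limits the size of change that could be seen.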

How the data were processed

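Single pancreatic cells sorted as EYFP positive or EYFP negative were sequenced in 6 libraries over 3 runs. The authors deposited matrices of whole-number UMI counts per gene and barcode. The submitters' processing notes name Cell Ranger 2.1.0 and GRCh38, while the matrix headers carry software version 3.1.0 and the 31053 features are mouse genes, and which mouse build was counted on was not given in the sources used here. Libraries were grouped by their titles.

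Cells were chosen with Python 3.11.15 by the rule given above, and UMI counts were summed per library and class. Sums were tested with edgeR 4.0.16 in R 4.3.3 (TMM scaling, filterByExpr, quasi-likelihood test, Benjamini-Hochberg adjustment over all genes tested, called at 0.05), with library as a block between arterial and other endothelial cells and with EYFP and state as terms between libraries. The EYFP and state model left 1 residual degree of freedom, and its lone EYFP positive and lone pancreatitis libraries were assumed to vary like the others. The genes of the rule stayed in the library sizes and out of the adjustment between classes. Shares were compared with two-sided exact permutation tests over libraries (scipy 1.17.1). An EYFP by state interaction was not fitted, since not all 4 groups kept a library with 10 arterial cells. Scrublet (scanpy 1.11.5) called 41 barcodes as doublets, 1 of them arterial, and they were kept in the main results. A count of 0 allows up to 3 counts, and intervals cover counting error only.

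The genes named with the largest changes were up to 15 per direction (10 between conditions, or the 5 of lowest p where fewer than 5 passed), called, in 1 direction in every library and at a mean level of at least 5 on the log2 CPM scale. Genes of the lists could be named as well. The members and lists were chosen with earlier results of these data known. The alternatives were DESeq2 1.42.0, other scaling, filters, thresholds, comparators and libraries left out.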

Additional observations from a re-analysis of the deposited data

Results flagged for a closer look

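The difference between arterial and other endothelial cells was itself compared between the pancreatitis library and the 3 homeostasis libraries, by an interaction term in edgeR added after the data were seen. It differed for 26 of 4747 genes at an adjusted p under 0.05, 5 upward and 21 downward. The upward ones were led by the haemoglobin genes Hba-a2 (interaction on the log2 scale 5.448), Hba-a1 (5.543), Hbb-bt (4.807) and Hbb-bs (5.533). The downward ones were mostly acinar enzymes such as the trypsinogen Prss2 (-3.31), which was at 399 CPM in arterial and 5096 in other endothelial cells of the pancreatitis library. Without cells of 10% or more haemoglobin UMIs, 22 genes differed, 1 upward and 21 downward. Hbb-bs then had an interaction of 0.04 at an adjusted p of 1, and Prss2 one of -3.69 at 6.9e-08.

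The same difference was compared between EYFP positive run 1 and the 3 EYFP negative libraries, and an interaction was called for 5 genes. Clu (-2.531), Hba-a2 (-6.963), Hbb-bs (-5.103) and Hba-a1 (-5.501) went downward, and the heat shock gene Hspa1b (1.687) went upward. Hspa1b was at 334 CPM in arterial and 106 in other endothelial cells of EYFP positive run 1. EYFP negative run 1 ran the same way, at 293 and 128 CPM. EYFP negative runs 2 and 3 ran the other way, at 209 against 271 and 228 against 336 CPM. Whether the difference goes with run or with EYFP was not tested. Without cells of 10% or more haemoglobin UMIs 7 genes differed, and Clu had an interaction of -2.52 at an adjusted p of 8.0e-10. The EYFP positive side rests on 1 library. Between the cell classes, the log2 fold change of Clu was -0.95 in the main fit and -0.33 without shared barcodes. It was 0.74 without cells that hold 2 markers of another cell type except acinar ones. The interaction was not fitted under those settings.

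A signal outside the gene counts was the sharing of barcodes. The EYFP positive and EYFP negative libraries had 23 barcodes in common in run 1, 71 in run 2 and 47 in run 3, against 0 to 2 between libraries of different runs.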

How the results depend on the processing

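The difference of the arterial share between EYFP positive and EYFP negative libraries, 3.04 points, was -0.934 when the arterial UMIs also had to reach 0.1% of a cell's UMIs, and ranged from -1.42 to 6.58 over the libraries left out in turn. It stayed at 3.04 with the run as a replicate block (two-sided exact sign-flip p = 0.25, the smallest that 3 pairs can give). The difference between pancreatitis and homeostasis, -0.81 points, was 0.0872 without Scrublet doublets and ranged from -3.4 to 2.58 over the libraries left out, turning positive without EYFP positive run 1 and without EYFP negative run 1 (0.334). The 493 genes called between arterial and other endothelial cells were 248 by DESeq2, 247 of them shared, 222 without the library block, and 298 to 658 over the libraries left out. The 8 genes called for EYFP were 2 by DESeq2, 5 when cells needed 500 genes and had no more than 10% mitochondrial UMIs, 1 with an arterial sum of at least 5 UMIs, 2 without cells that hold 2 markers of another cell type except acinar ones, 12 without the pancreatitis library, 15 with all 6 libraries, and 12 with all 6 libraries and the run as a replicate block. The 14 genes called for state were 3 by DESeq2, 4 under the 0.1% rule and 4 without cells of 10% or more haemoglobin UMIs, where Ube2l6 turned to -0.28. The cause of these changes was not tested, beyond the cells or libraries each setting removes. For the 30 genes of largest change between the cell classes, 575 values under the alternatives kept direction and side of the threshold and 2 lost the call. For the genes named by rule, the same counts were 103 and 30 for EYFP and 154 and 46 for state. The genes named by rule include Hist1h1e, Cd24a and Id4 for EYFP and Nuak1 for state, which were not called. For these, keeping the side of the threshold means staying uncalled. Sox18, Rbp7, Nrp1 and Clu, named from the lists, are not among the 30 genes of largest change. Their lost or turned calls are given with their values. The settings without cells of another type except acinar, without haemoglobin-rich cells, without shared barcodes and with all 6 libraries were chosen after seeing the data.

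Not run were the removal of cells with 2 markers of any other cell type, since 93.5% of arterial and 93.0% of other endothelial cells hold 2 acinar markers, the run as a block on the 4 libraries, which leaves no residual degrees of freedom, state within EYFP positive libraries, and leaving out EYFP positive run 1 or the pancreatitis library where that ends the contrast. The pancreatitis library rests on 25 arterial cells.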
